A study of Mus musculus with 6 samples.

Results

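The 10 genes described here carry iron into the cell, store it, release it from ferritin or haem, pass it out or sense it, and were followed in primary mouse proximal tubular epithelial cells under a drug that starts ferroptosis. They were Tfrc, Slc11a2, Steap3, Fth1, Ftl1, Ncoa4, Slc40a1, Hmox1, Aco1 and Ireb2, chosen by name, and all 10 were among the 24421 gene symbols of the deposited table. Messenger RNA was sequenced from 3 libraries labelled Atg5KO and 3 labelled Atg5F/F (floxed Atg5, the control). Every library came from cultured primary kidney cells given 20 µM erastin2 for 24 h, and all carry the same batch label. No untreated cells were analysed here, so a difference present without the drug and one that depends on it cannot be told apart. The labels name neither the Cre driver nor the part of Atg5 that was deleted, nor an animal or culture for each replicate. The p-values therefore measure only the spread between these libraries, which may be technical.

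A cell takes up transferrin-bound iron through the transferrin receptor, reduces it in the endosome and moves it to the cytosol through a divalent metal transporter. Ferritin, a shell of heavy and light chains, stores what is not used, and the receptor NCOA4 delivers ferritin to autophagosomes so that lysosomes can free the iron, a process called ferritinophagy that depends on ATG5. When iron is scarce, the iron regulatory proteins IRP1 and IRP2 bind hairpins called iron responsive elements: binding in the 5′ untranslated region blocks translation of ferritin and ferroportin, and binding in the 3′ untranslated region of Tfrc protects that messenger RNA from decay. Erastin2 blocks cystine uptake, which lowers glutathione and leaves lipids open to peroxidation driven by iron. The proximal tubule reabsorbs filtered transferrin and other iron carriers through the receptors megalin and cubilin.

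Of the 10 genes, 7 were lower in the libraries labelled Atg5KO, 1 was higher and 2 were not called (limma on log2(FPKM + 1), Benjamini-Hochberg adjusted p under 0.05). The 7 lower genes spanned uptake (Tfrc, Slc11a2, Steap3), storage (Fth1, Ftl1), haem breakdown (Hmox1) and IRP1 (Aco1). Ireb2, which encodes IRP2, was the 1 higher gene. Ncoa4 and the exporter gene Slc40a1 were the 2 not called. Of all 11559 genes tested, 39.2% were called, 17.9% as lower and 21.3% as higher in KO-labelled libraries. The median log2 fold change of the 10 genes was -0.34, against 0.02 over all tested genes. For the same 8 genes the KO-labelled and F/F-labelled values stood apart without overlap, as they did for 51.9% of all tested genes, 23.2% with the KO-labelled values lower and 28.7% with them higher. All 10 passed the filter of at least 1 FPKM in at least 3 libraries. Steap3 reached it through the 3 F/F-labelled libraries and 1 KO-labelled library, so its group of higher values carried it over the filter. FPKM are fragments scaled to the length of the gene and the total of the library, and a fold change on the log2(FPKM + 1) scale understates the change of low genes.

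**Figure D1:**
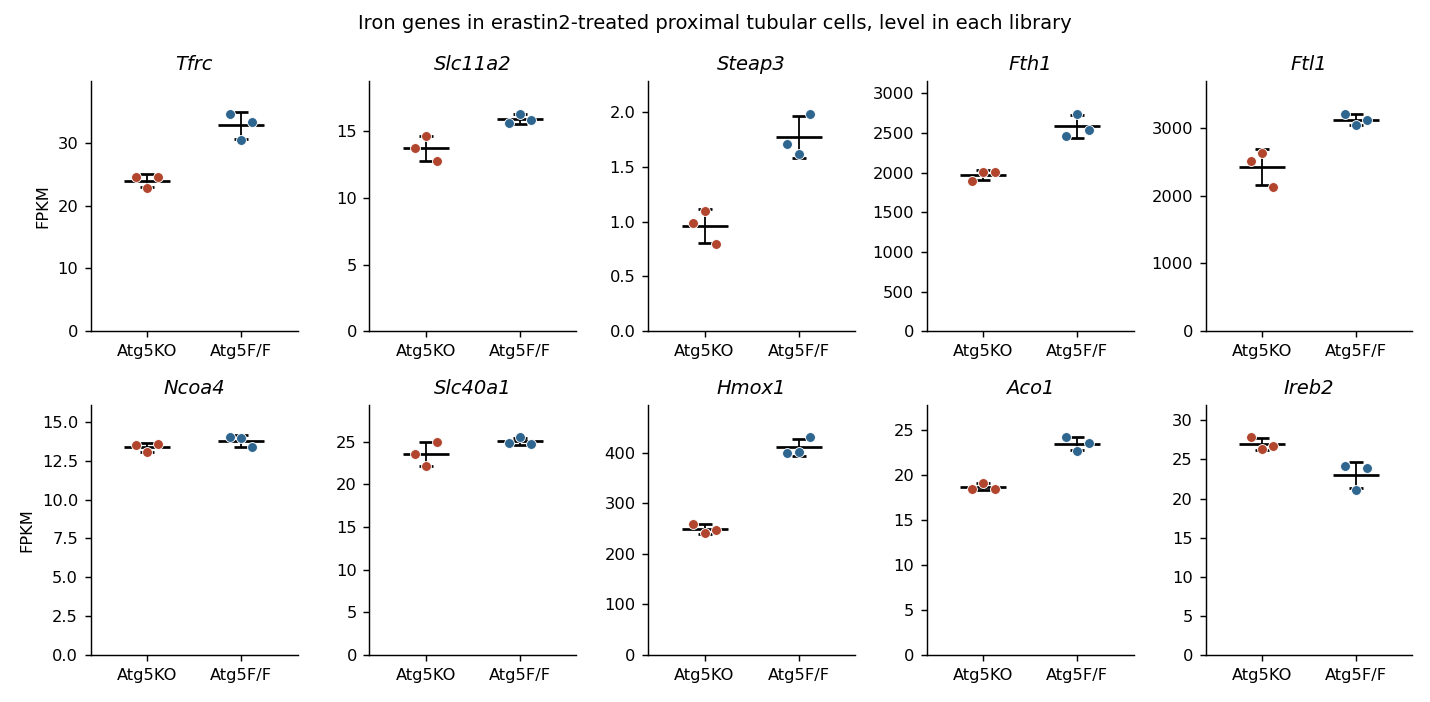
Level of each of the 10 iron genes in FPKM (vertical axes, each from 0) in the 3 libraries labelled Atg5KO and the 3 labelled Atg5F/F; points are libraries, the wide line is the mean and the bars are 1 SD. The KO-labelled points lie below all F/F-labelled points in Tfrc, Slc11a2, Steap3, Fth1, Ftl1, Hmox1 and Aco1, and above them in Ireb2. In Ncoa4 and Slc40a1 the groups overlap, with some KO-labelled points below the F/F-labelled range.

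The libraries held 16922491 to 19724355 reads in the KO-labelled group and 15528454 to 30004933 in the F/F-labelled group, as implied by the steps of their FPKM values. Atg5 itself was not lower under the KO label: it had 13.3, 11.5 and 12.7 FPKM in the libraries labelled Atg5KO and 8.76, 8.95 and 7.94 FPKM in those labelled Atg5F/F (log2 fold change 0.50, SE 0.066, limma adjusted p = 0.00055). Reads summed over the gene do not reveal a deleted exon, so every direction given here rests on the labels, and the groups are called KO-labelled and F/F-labelled. Of 15 proximal tubule markers in the table, 7 averaged at least 1 FPKM, among them Pax8, Cdh6, Lrp2, Ggt1 and Hnf4a. The brush border transporter genes Slc34a1 and Slc5a2 stayed near 0, and Slc22a8 was at 0 in all 6 libraries. The markers summed to 503.4 to 549.8 FPKM in KO-labelled and 595.0 to 625.0 FPKM in F/F-labelled libraries, with 4 of the 7 tested called lower and 1 higher. The part of this shift in the iron results was not tested. Of the markers of macrophages, which can be rich in Hmox1 and Slc40a1, Adgre1, Itgam, C1qa, C1qb and Spic were at 0 in every library. The 12 macrophage markers summed to 10.7 to 12.9 FPKM in KO-labelled and 11.3 to 13.6 FPKM in F/F-labelled libraries, nearly all of it from Csf1r and Cd68. The 4 globin genes searched were at 0 in every library, and the 8 erythroid markers summed to at most 0.612 FPKM in KO-labelled and 0.638 FPKM in F/F-labelled libraries. Fibroblast markers summed to 6.66 to 9.40 FPKM in KO-labelled libraries and 0.85 to 1.12 FPKM in F/F-labelled ones. Postn gave most of the KO-labelled sum, at 8.01 FPKM on average, and the other 7 markers were too low to test. Among those, Col1a1 averaged 0.177 FPKM in KO-labelled and 0.064 FPKM in F/F-labelled libraries without overlap, and Pdgfra, Pdgfrb, Col1a2, Col3a1, Dcn and Lum stayed below 0.1 FPKM on average in both groups. The part of these markers in the iron results was not tested. Endothelial markers summed to 5.27 to 6.56 FPKM in KO-labelled and 8.49 to 10.0 FPKM in F/F-labelled libraries, nearly all from Kdr, with Pecam1 and Cdh5 near 0. Markers of other nephron segments summed to at most 0.112 FPKM in any library. In bulk RNA, fewer cells of a type and less RNA per cell cannot be told apart.

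Fth1, Ftl1 and Tfrc, which differed between the groups, carry the hairpin that iron regulatory proteins bind, and its sequences are shown for that reason. The untranslated regions of the GENCODE vM21 protein-coding transcripts (GRCm38, the build in the submitters' processing notes) were searched on the sense strand for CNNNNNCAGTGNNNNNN, an unpaired C, a stem of 5 bases, the loop CAGTGN and 5 bases that pair with the stem, G with T pairs allowed. Of the 10 genes, 4 held a match. Fth1 had 1 in the 5′ untranslated region (chr19:9982732-9982761, plus strand, exon 1 of 4), Ftl1 had 1 (chr7:45459778-45459807, minus strand, exon 1 of 4) and Slc40a1 had 1 (chr1:45925464-45925493, minus strand, exon 1 of 8). Tfrc had 4 in its 3′ untranslated region, all in the last exon, 19 of 19. Their windows on the plus strand were chr16:32631219-32631248, chr16:32631598-32631627, chr16:32631663-32631692 and chr16:32631710-32631739. Over 21877 protein-coding genes, 0.142% held a match in the 5′ untranslated region and 0.590% in the 3′ region. Only 2 of 7 further transcripts listed as carriers of an iron responsive element held a match, so the pattern misses listed carriers. A gene without a match, such as Slc11a2, may still carry an element, and Tfrc may carry more than its matches. The windows of 30 bases are written 5′ to 3′ in DNA letters, with the 6 bases of the loop in capitals:
Fth1: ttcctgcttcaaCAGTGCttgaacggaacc
Ftl1: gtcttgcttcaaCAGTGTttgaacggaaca
Slc40a1: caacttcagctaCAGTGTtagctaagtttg
Tfrc site 1: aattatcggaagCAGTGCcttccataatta
Tfrc site 2: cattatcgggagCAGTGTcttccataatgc
Tfrc site 3: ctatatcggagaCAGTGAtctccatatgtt
Tfrc site 4: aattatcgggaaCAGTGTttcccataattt

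**Figure D2:**
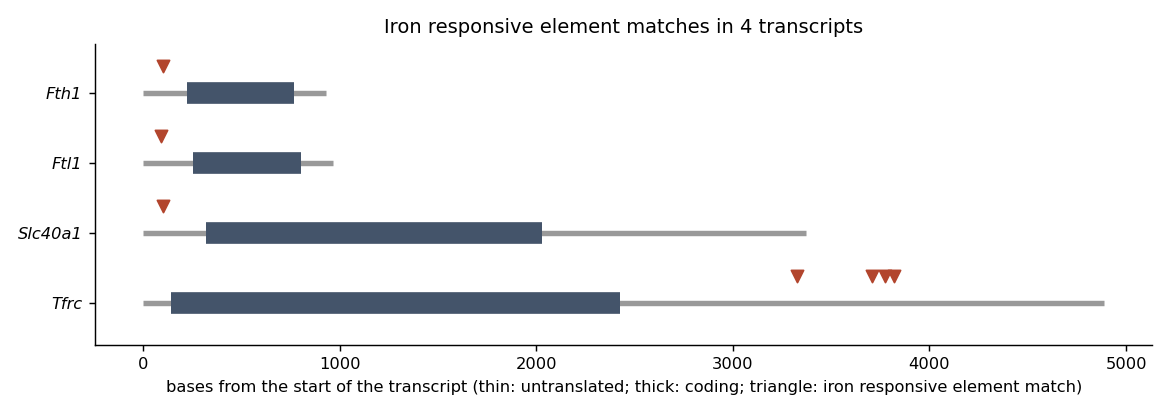
Transcripts of 4 iron genes drawn to scale, with bases from the transcript start on the horizontal axis, untranslated regions as thin lines, coding sequence as thick bars and each iron responsive element match as a triangle. The match lies before the coding sequence in Fth1, Ftl1 and Slc40a1, and the 4 matches of Tfrc lie after it.

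The windows of the ferritin chains shared 26 of 30 bases with each other, whereas Fth1 and Slc40a1 shared 13 of 30. The first base of the element was base 93 of the 929-base Fth1 transcript and base 84 of the 968-base Ftl1 transcript, both close to the cap end. In Tfrc the elements lay 892 to 1383 bases after the last coding base. Of the 4 genes with a match, Fth1, Ftl1 and Tfrc were lower in KO-labelled libraries and Slc40a1 was not called. Among the genes without a match, Slc11a2, Steap3, Hmox1 and Aco1 were lower too, Ireb2 was higher and Ncoa4 was not called. Over all tested genes, 17.9% were lower. A link between a match and the difference in level was not tested. The matches say only that these letters occur, and protein binding was not measured.

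Among the uptake genes, Tfrc, the transferrin receptor that brings iron-loaded transferrin into the endosome (chromosome 16, 32608920 to 32632794), had 24.5, 22.8 and 24.6 FPKM in KO-labelled libraries, against 34.6, 30.4 and 33.3 FPKM in F/F-labelled libraries. The groups were 5.80 FPKM apart at their nearest values. Tfrc thus averaged 24.0 ± 0.97 FPKM in KO-labelled and 32.8 ± 2.2 FPKM in F/F-labelled libraries (SD, n = 3 each). It fell by 26.8% in the means (log2 fold change -0.43, SE 0.055, limma adjusted p = 0.00042). Read numbers were 1900 to 2373 in KO-labelled and 2318 to 5104 in F/F-labelled libraries. The call held in all 16 alternative analyses.

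Slc11a2 encodes DMT1, which moves ferrous iron out of the endosome (chromosome 15, 100387898 to 100425072). It had 13.7, 14.7 and 12.8 FPKM in KO-labelled libraries and 15.6, 16.3 and 15.9 FPKM in F/F-labelled libraries. The gap between the groups was 0.95 FPKM, about the SD of the KO-labelled values. It fell by 13.9% in the means (log2 fold change -0.20, SE 0.054, limma adjusted p = 0.017). The call was lost without Atg5F/F replicate 2 (limma adjusted p = 0.053) and without Atg5F/F replicate 3 (0.052). An exon of Gm5475 overlaps Slc11a2 on the other strand, and the strand setting of the counting is not given in the sources used here, so reads of the pair may be mixed.

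Steap3, the ferrireductase that turns endosomal iron into the form DMT1 carries, was by far the lowest of the 10 (chromosome 1, 120190757 to 120272705). It had 0.99, 1.10 and 0.80 FPKM in KO-labelled libraries, against 1.71, 1.62 and 1.99 FPKM in F/F-labelled libraries, without overlap. These rested on only 62, 59 and 44 reads in KO-labelled libraries and 163, 80 and 141 reads in F/F-labelled ones. It fell by 45.8% in the means. Its log2 fold change was -0.50 (SE 0.097, limma adjusted p = 0.0040) with a pseudocount of 1 FPKM, and -0.83 with 0.1 FPKM or -0.89 with voom on the recovered reads, since 1 FPKM is close to its level.

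Ferritin messenger RNA was abundant in every library. Ftl1, the light chain that helps mineralise the stored iron, ranked between 2 and 4 among all genes by FPKM, and Fth1, the heavy chain with the ferroxidase activity, between 4 and 6. The chains together took 1.195%, 1.254% and 1.153% of the FPKM sum in KO-labelled libraries, against 1.506%, 1.529% and 1.498% in F/F-labelled libraries. In the KO-labelled libraries Fth1 (chromosome 19, 9980598 to 9985098) had 1892, 2007 and 2002 FPKM, against 2460.0, 2743 and 2543 FPKM in the F/F-labelled libraries. It fell by 23.8% in the means (log2 fold change -0.39, SE 0.076, limma adjusted p = 0.0040). Every KO-labelled value was below every F/F-labelled one, by at least 453.3 FPKM.

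The light chain gene Ftl1 (chromosome 7, 45457944 to 45459884) had 2504, 2629 and 2125 FPKM in KO-labelled libraries and 3206, 3036 and 3115 FPKM in F/F-labelled libraries. Atg5KO replicate 3 stood lowest, and the groups did not overlap. Ftl1 fell by 22.4% in the means (log2 fold change -0.37, SE 0.096, limma adjusted p = 0.015). That call was lost without Atg5F/F replicate 1 (limma adjusted p = 0.053) or replicate 3 (0.055), and with no filter on low values both chains lost theirs (0.21 for Ftl1 and 0.12 for Fth1). Quantile normalization, which gives genes of the same rank the same value in every library, left Ftl1 at -0.01 (0.93), while Fth1 stayed called at -0.28. Pseudogenes of both chains are annotated, among them Ftl1-ps2, Fth-ps2 and Fth-ps3, and exons of Gm22133 and Gm10252 overlap Ftl1. How shared reads were counted is not given in the sources used here, so the ferritin levels are uncertain to that extent.

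The ratio of heavy to light chain did not separate the groups. Fth1 over Ftl1 was 0.756, 0.763 and 0.942 in KO-labelled libraries and 0.767, 0.904 and 0.817 in F/F-labelled libraries, with means of 0.820 ± 0.11 in KO-labelled and 0.829 ± 0.069 in F/F-labelled libraries (SD, n = 3 each). Tfrc over Fth1 was 0.0129, 0.0114 and 0.0123 in KO-labelled and 0.0141, 0.0111 and 0.0131 in F/F-labelled libraries. Those values overlapped too. Both ratios are given as descriptions, without a test.

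Ncoa4, the receptor that hands ferritin to the autophagosome (chromosome 14, 32159865 to 32179855), had 13.5, 13.0 and 13.6 FPKM in KO-labelled libraries and 14.0, 14.0 and 13.4 FPKM in F/F-labelled libraries. The values overlapped. The log2 fold change was -0.04 (SE 0.043, limma adjusted p = 0.50), with a 95% interval of -0.14 to 0.06, so a change as large as that of ferritin lay outside the interval. It was not called in any of the 16 alternative analyses.

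Slc40a1 encodes ferroportin, the exporter of ferrous iron (chromosome 1, 45908068 to 45926523). It had 23.6, 22.2 and 24.99 FPKM in KO-labelled libraries and 24.9, 25.5 and 24.8 FPKM in F/F-labelled libraries. Atg5KO replicate 3 lay within the F/F-labelled range and the other KO-labelled values lay below it. The log2 fold change was -0.09 (SE 0.048, limma adjusted p = 0.19) with a 95% interval of -0.20 to 0.02. The authors' deposited table gives Slc40a1 an FDR of 0.109 and Ncoa4 an FDR of 0.537, and puts the other 8 genes under 0.05, as it does 22.0% of its 24421 rows.

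Hmox1, the inducible haem oxygenase that opens the haem ring and frees its iron, had the largest difference of the 10 on this scale (chromosome 8, 75093621 to 75100589). Its values were 259, 241 and 247 FPKM in KO-labelled libraries, against 399.8, 401 and 430.1 FPKM in F/F-labelled libraries. The nearest values of the groups were 140.4 FPKM apart, several times the SD within either group. Hmox1 averaged 249.1 ± 9.3 FPKM in KO-labelled and 410.4 ± 17 FPKM in F/F-labelled libraries (SD, n = 3 each) and fell by 39.3% in the means (log2 fold change -0.72, SE 0.049, limma adjusted p = 1.7e-05). Its values across alternatives ran from -0.75 to -0.64 and all were called. The constitutive haem oxygenase gene Hmox2 was not called, at 28.9 ± 0.93 FPKM in KO-labelled and 30.7 ± 0.85 FPKM in F/F-labelled libraries (-0.08, limma adjusted p = 0.14). Nearest to Hmox1 in pattern over the 6 libraries, by Euclidean distance of log2 deviations from each gene's mean, were Slc16a1 (0.1002) and Idh1 (0.1011).

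The genes of the iron regulatory proteins moved in opposite directions. Aco1 encodes IRP1, which serves as cytosolic aconitase when it holds an iron-sulphur cluster (chromosome 4, 40143081 to 40198338). It had 18.5, 19.1 and 18.4 FPKM in KO-labelled libraries and 24.2, 22.7 and 23.6 FPKM in F/F-labelled libraries, lower in every KO-labelled library. It fell by 20.5% in the means (log2 fold change -0.31, SE 0.041, limma adjusted p = 0.00050). Ireb2 encodes IRP2, which is degraded when iron is plentiful (chromosome 9, 54863789 to 54912530). It had 27.8, 26.3 and 26.8 FPKM in KO-labelled libraries and 24.1, 21.1 and 23.9 FPKM in F/F-labelled libraries, higher in every KO-labelled library (log2 fold change 0.22, SE 0.055, limma adjusted p = 0.013). With the trend on gene length removed from each library, Ireb2 was no longer called (0.15, limma adjusted p = 0.051). Ireb2 over Aco1 was 1.51, 1.38 and 1.45 in KO-labelled libraries against 0.998, 0.930 and 1.01 in F/F-labelled libraries, a ratio chosen after its values were seen.

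**Figure D3:**
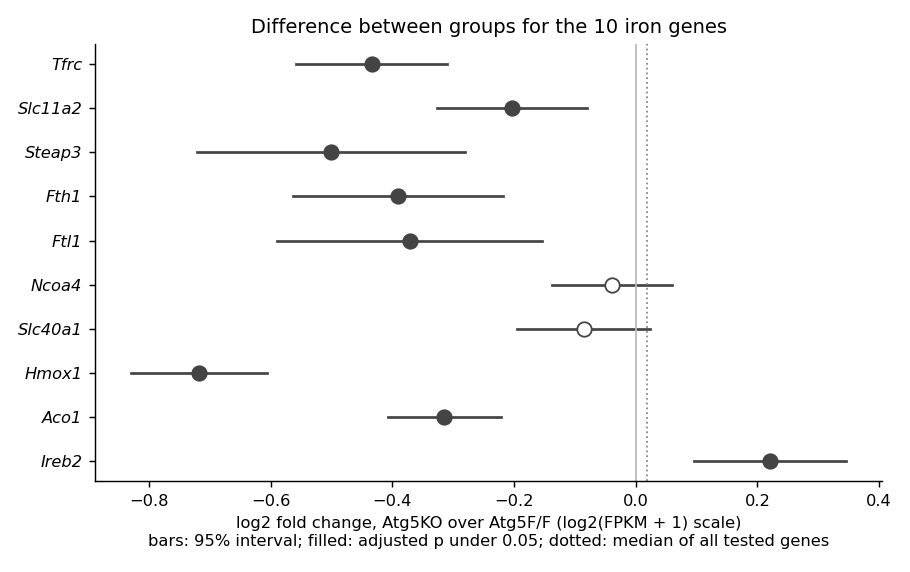
Log2 fold change of KO-labelled over F/F-labelled libraries for the 10 iron genes (horizontal axis, log2(FPKM + 1) scale), with 95% intervals as bars and filled points where the adjusted p was under 0.05. Hmox1 lies farthest to the left at -0.72, Ireb2 alone lies to the right at 0.22, and the intervals of Ncoa4 and Slc40a1 cross 0.

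By level, the 10 genes fell into 3 tiers in both groups. The ferritin chains stood at 1892 FPKM or more in every library with Ftl1 over Fth1, Hmox1 followed at 241 to 430.1 FPKM, and the other genes lay between 0.80 and 34.6 FPKM. In KO-labelled libraries Ireb2 led the lowest tier at 27.0 FPKM, ahead of Tfrc (24.0), Slc40a1 (23.6), Aco1 (18.7), Slc11a2 (13.7), Ncoa4 (13.4) and Steap3 (0.96). There Tfrc overlapped with Slc40a1, and Slc11a2 with Ncoa4. In F/F-labelled libraries Tfrc led at 32.8 FPKM, ahead of Slc40a1 (25.1), Aco1 (23.5), Ireb2 (23.0), Slc11a2 (15.9), Ncoa4 (13.8) and Steap3 (1.77). Of the neighbours in that order, only Aco1 and Ireb2 overlapped.

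The wider iron pathway was described from 8 lists of genes with known roles; values after a gene name here are log2 fold changes, and means carry the SD over 3 libraries. Of their 74 genes in the table, 58 were tested, 25 were lower in KO-labelled libraries, 7 were higher and 26 passed neither way. Their median log2 fold change was -0.11, beside 0.02 over all tested genes. The lower genes made up 43.1% of those tested, beside 17.9% of all tested genes. Without Atg5F/F replicate 3 the count of higher genes was 4. Other uptake genes had 7 of 11 lower (63.6%) and 1 higher (9.09%). Amn, which brings cubilin to the membrane, averaged 2.27 ± 0.42 FPKM in KO-labelled and 6.08 ± 0.27 FPKM in F/F-labelled libraries (log2 fold change -1.12, limma adjusted p = 5.6e-05). The cubilin gene Cubn itself averaged only 0.258 FPKM in KO-labelled and 0.373 FPKM in F/F-labelled libraries and was too low to test. Lrp2, the megalin receptor, averaged 35.4 ± 1.2 FPKM in KO-labelled and 54.4 ± 0.82 FPKM in F/F-labelled libraries (-0.60, limma adjusted p = 1e-05). Amn and Lrp2 belong to the differentiated tubule. Lrp2 is itself 1 of the 15 tubule markers, so their lower sum in KO-labelled libraries includes its fall and is not separate from it. The part of a shift in tubule markers in the values of Amn and Lrp2 was not tested. Slc39a14, the ZIP14 transporter of iron not bound to transferrin, averaged 22.6 ± 1.1 FPKM in KO-labelled and 32.6 ± 0.18 FPKM in F/F-labelled libraries (-0.51). The metalloreductase gene Steap1 was lower as well (-0.37). Lcn2, a carrier of siderophore-bound iron, was the 1 higher uptake gene (0.27, limma adjusted p = 0.039). Its groups were only 1.025 FPKM apart at their nearest values, against an SD of 10.9 FPKM in KO-labelled libraries.

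Of 6 tested genes of iron storage and chaperones beside Fth1 and Ftl1, 4 fell in KO-labelled libraries and the other 2 were not called. The lower genes made up 66.7% of this list, beside 17.9% of all tested genes. Pcbp1, which loads iron into ferritin, averaged 159.9 ± 4.0 FPKM in KO-labelled and 196.9 ± 7.6 FPKM in F/F-labelled libraries (log2 fold change -0.30, limma adjusted p = 0.00087). Bola2 (-0.34), Pcbp3 (-0.29) and Pcbp2 (-0.14) were the other 3, and Pcbp2 lost its call in 8 of the 16 alternative analyses. Around ferritin turnover, Herc2, the ligase that degrades NCOA4 when iron is high, was not called (-0.02), nor was the receptor gene Tax1bp1 (0.08). Rb1cc1, the FIP200 scaffold of autophagy initiation, was higher at 23.0 ± 1.1 FPKM in KO-labelled against 16.6 ± 0.56 FPKM in F/F-labelled libraries (0.45). Cd63, a membrane protein of vesicles that can carry ferritin out of the cell, was lower (-0.38). Beside ferroportin, the ferroxidase gene Cp was lower in KO-labelled libraries (-0.20), a call lost in 7 of the 16 alternatives. The ferroportin ligand gene Hamp had 0.292 FPKM in 1 KO-labelled library and 0 in the other 5.

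Of 13 tested genes that control the iron regulatory proteins or build their clusters, 9 were not called, 3 were higher and 1 was lower. The higher genes made up 23.1% of this list, near the 21.3% of all tested genes. Of the 4 listed subunits of the ligase that degrades IRP2 when iron is plentiful, 3 were called: Fbxl5, its iron sensor (37.7 ± 0.78 FPKM in KO-labelled against 34.0 ± 0.25 FPKM in F/F-labelled libraries, log2 fold change 0.15), Skp1a (0.16) and Cul1 (0.13). Rbx1, the remaining subunit, was not called (0.03, limma adjusted p = 0.74). Skp1a was not called without Atg5F/F replicate 3, and Cul1 lost its call in 11 of the 16 alternatives. The lower gene, Nubp2 (-0.20), takes part in building cytosolic iron-sulphur clusters. Of 7 further transcripts listed as carriers of an iron responsive element, 4 were tested. Pfn2 was lower (-0.56) and Cdc42bpa was higher (0.33). Alas2 held the hairpin searched here in its 5′ region and was too low to test.

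Of 9 tested genes of haem breakdown and transport beside Hmox1, 4 fell (44.4%) in KO-labelled libraries, 1 rose (11.1%) and 4 were not called. Over all tested genes, 17.9% were lower and 21.3% higher. Slc48a1, which passes haem from the lysosome to the cytosol, averaged 102.6 ± 4.7 FPKM in KO-labelled and 152.9 ± 5.9 FPKM in F/F-labelled libraries (log2 fold change -0.57, limma adjusted p = 4.4e-05). Abcg2, which can export porphyrins, was lower (-0.58), and so were the biliverdin reductase genes Blvrb (-0.44) and Blvra (-0.20). The enzyme of Blvra acts on the product of haem oxygenase. The gene that rose, Bach1, encodes a haem-sensing repressor of Hmox1 and ferritin genes. It averaged 17.7 ± 0.66 FPKM in KO-labelled and 15.0 ± 0.55 FPKM in F/F-labelled libraries (0.23, limma adjusted p = 0.0054). Mitochondrial iron genes had 5 of 8 lower (62.5%, beside 17.9% of all tested genes) and 3 not called. They included the iron importers Slc25a37 (-0.41) and Slc25a28 (-0.27), the outer-membrane cluster protein gene Cisd1 (-0.32) and Abcb8 (-0.26).

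Hmox1, the ferritin genes and Slc40a1 are also targets of NRF2, the transcription factor of the antioxidant response. Hmox1 and the ferritin genes were lower in KO-labelled libraries and Slc40a1 was not called, as given above. Another 11 targets were set beside them. Among these, 6 were lower in KO-labelled libraries, 3 were higher and 2 were not called. The lower targets made up 54.5% of the list and the higher ones 27.3%, beside 17.9% and 21.3% of all tested genes. Srxn1, sulfiredoxin, averaged 117.3 ± 2.6 FPKM in KO-labelled and 184.9 ± 8.9 FPKM in F/F-labelled libraries (log2 fold change -0.65, limma adjusted p = 1.7e-05), and Gsr (-0.48) and Prdx1 (-0.43) were lower too. Gclc, the catalytic subunit of glutathione synthesis, was higher, with 428.7 ± 17 FPKM in KO-labelled and 271.4 ± 11 FPKM in F/F-labelled libraries (0.66, limma adjusted p = 2.7e-05). The other 2 higher genes, named after their values were seen, were Nqo1 (0.36) and Gclm (0.13), and Gclm lost its call in 7 of the 16 alternatives.

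**Figure D4:**
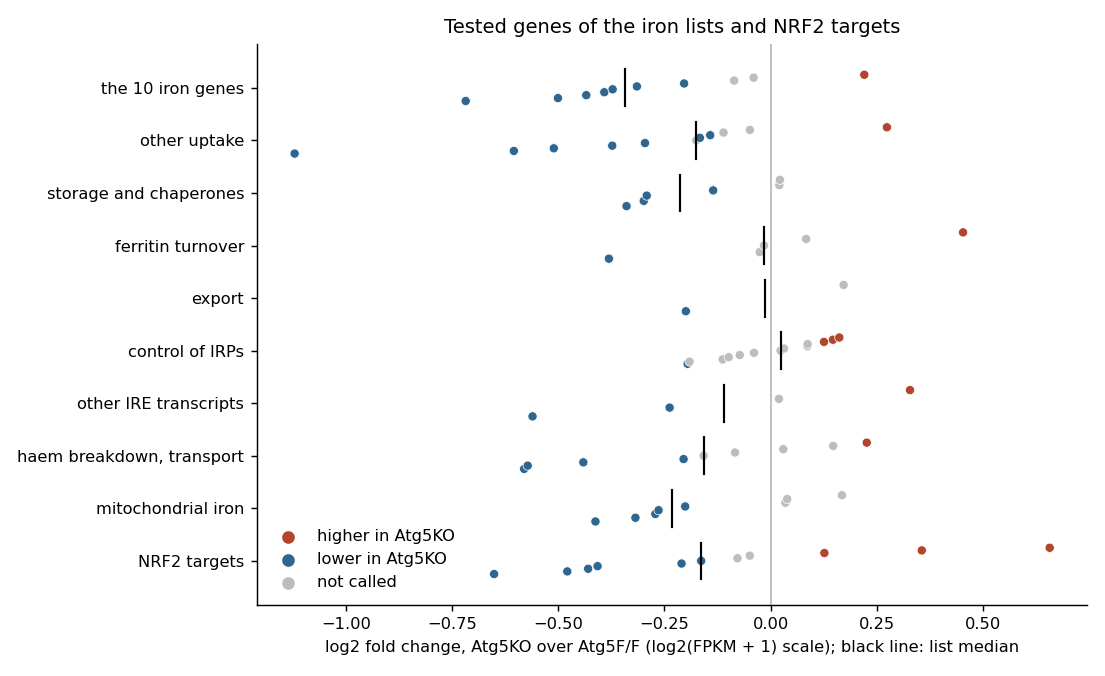
Log2 fold change of KO-labelled over F/F-labelled libraries (horizontal axis, log2(FPKM + 1) scale) for the tested genes of each list; 1 point is 1 gene, blue where called lower, red where called higher and grey where not called, and the black line is the list median. The median of the 10 iron genes lies at -0.34, and the genes that control the iron regulatory proteins lie on both sides of 0.

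**Figure D5:**
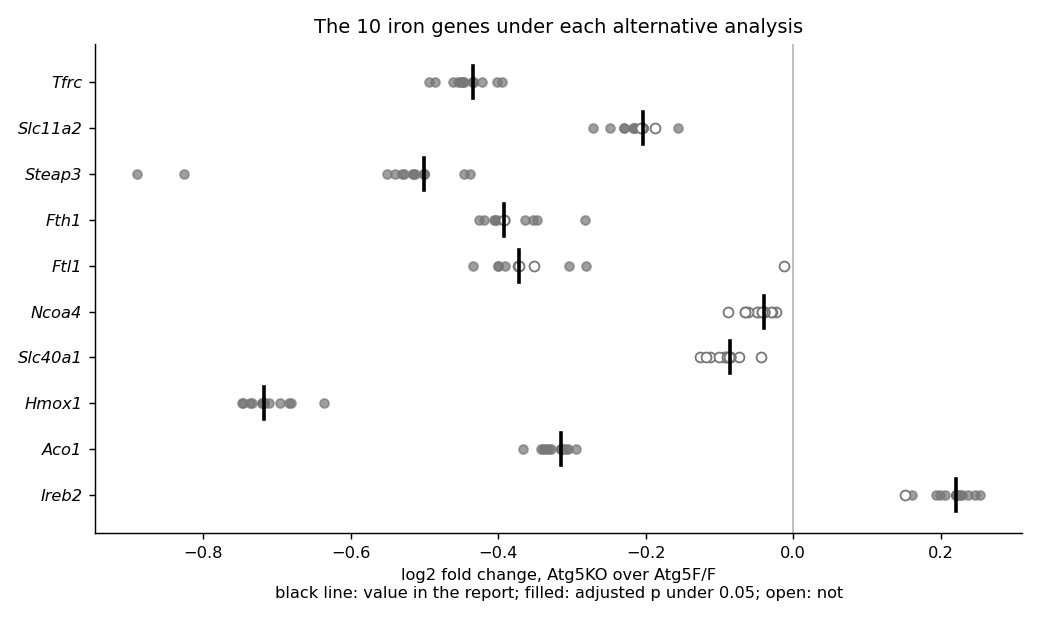
Log2 fold change of KO-labelled over F/F-labelled libraries for the 10 iron genes under each of 16 alternative analyses (15 for Steap3); filled points had an adjusted p under 0.05, open points did not, and the black line is the value given in the text. Hmox1 stays between -0.75 and -0.64, Steap3 spreads from -0.89 to -0.44, and 1 open point of Ftl1 lies near 0.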

How the data were processed

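A TruSeq stranded mRNA kit was used, per the labels' protocols. The submitters' processing notes name bcl2fastq, the trimmer Trimmomatic (0.35), the aligner HISAT2 (2.1.0), the counter featureCounts (1.4.6), edgeR, and the builds GRCm38 and mm10. Annotation, strand setting and multi-mapping rule were not given there. The authors deposited a single table of FPKM values for each library. Beside it the authors gave log2 fold changes, p-values and an FDR. A ranking score, also deposited by the authors, was left unused. The deposited column named as an adjusted p-value is unadjusted: Benjamini-Hochberg adjustment of it meets the FDR within 4.72e-07.

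Assuming a whole length per gene and a whole total per library, FPKM of all 18296 genes above 0 (100%) gave whole reads, within a relative 1.5e-09 or 2.0e-04 reads. These served for the depths and for a voom alternative. Replicates differed beyond sampling noise (chi-square per degree of freedom 3.06 to 6.16), and each was counted separately.

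The filter kept a gene with 1 FPKM or more in 3 or more of 6 libraries. Differences in log2(FPKM + 1), KO-labelled minus F/F-labelled, were tested with limma 3.58.1 in R 4.3.3 (lmFit, eBayes with a variance trend) and adjusted by Benjamini-Hochberg over all genes kept. Scripts were tested on simulated data. Members, lists and alternatives were chosen with earlier results of these data known. Named genes were the 10 genes, Atg5, up to 4 called genes of each list with the largest absolute change, and the 3 genes nearest to Hmox1 in pattern; others were named for their role or after their values were seen. Some genes that this rule names are not reported here. The 8 wider iron lists cover uptake, storage and chaperones, ferritin turnover, export, control of the regulatory proteins, further element-bearing transcripts, haem and mitochondria; NRF2 targets and cell type markers stand apart from them. Coordinates and transcripts are those of GENCODE vM21, and older symbols were matched through RefSeq (GRCm38.p6). The alternatives changed the replicate block, libraries, scaling, pseudocount, filter, variance model, length trend or unit.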

Additional observations from a re-analysis of the deposited data

How the results depend on the processing

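In 16 alternative analyses the direction of each of the 10 genes stayed as reported. Tfrc, Hmox1, Aco1 and Steap3 kept their calls wherever they were tested, and the alternatives that ended the calls of Slc11a2, Fth1, Ftl1 and Ireb2 are given beside them; the cause was not tested. With the length trend removed, 0 of the 10 genes were called higher in place of 1. Leaving out a library in turn gave 5 to 7 of the 10 genes lower and 1 higher, 19 to 23 other iron genes lower and 4 to 8 higher, 5 to 6 NRF2 targets lower and 2 to 3 higher, and 3265 to 4122 called genes of all tested. The heavy to light ferritin ratio, KO-labelled minus F/F-labelled, was -0.0088 and ran from -0.0697 to 0.0285 without single libraries, inside its spread of 0.0892, so its sign is not settled; that of Tfrc to Fth1 was -0.00054, from -0.00138 to 0.000119. Atg5 remained higher in each. For the 32 other named genes, 478 of 512 values kept their side of the threshold, 34 lost a call and 0 changed sign. Lcn2, Blvra, Hmox2, Herc2, Tax1bp1 and Rbx1 were not among these 32. The replicate block ended no call among the 10 genes and gave 4668 calls over all tested genes, against 4530 without it; it ended that of Cul1 (limma adjusted p = 0.068). Deviations of same-numbered libraries correlated at 0.163, 0.075 and -0.023 for replicates 1 to 3, so the numbers were not taken as pairs. Deviations from the gene means followed gene length at a Spearman rho, across genes, of 0.115, 0.040 and 0.344 in KO-labelled and -0.197, -0.161 and -0.228 in F/F-labelled replicates 1 to 3. Steap3 was not tested with a filter of 5 FPKM. Depth limits Steap3 most, at 44 to 163 reads a library.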
